A study of Mus musculus with 13 samples.

Results

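The 99 transporter genes described here were all gene symbols of the deposited tables that name an ABC transporter of subfamilies A to G, an organic anion transporting polypeptide (Slco), or a member of the Slc22a, Slc10a or Slc47a families, with 1 pseudogene name left out. They are 50 ABC genes and 49 SLC genes among 23361 gene symbols, and the rule uses symbols alone, although it was set with earlier results of these data known. The libraries came from hepatocellular carcinomas of mice on a mixed C57BL/6; 129Sv background with the genotype Mst1-/-; Mst2Flox/Flox. Adeno-Cre had been injected to remove Mst2 from the liver, so loss of the Hippo kinases Mst1 and Mst2 is shared by both groups, and no normal liver is compared here. Animals received intravenous lipid nanoparticles for 9 days, carrying siRNA against Yap (siYap, 5 libraries) or against luciferase (siLuc, 8 libraries), a firefly enzyme with no mouse counterpart. The labels give neither age nor sex. They do not tie libraries to animals either, and the p-values here reflect variation among libraries, which may in part be technical.

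Hepatocytes take up bile acids, drugs and organic ions from blood through carriers in the sinusoidal (basolateral) membrane and push bile acids, phospholipid, sterols and conjugates into bile through pumps in the canalicular (apical) membrane. The uptake carriers are mostly Slco, Slc22a and Slc10a proteins, which use gradients, whereas the canalicular pumps are mostly ABC proteins, which hydrolyse ATP. A further set of ABC proteins in the sinusoidal membrane exports conjugates and lipids back to blood, and other ABC proteins work inside mitochondria, peroxisomes and lysosomes or have no membrane domain. In the liver lobule many of these genes are known to be expressed unevenly between the portal and the central vein.

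The libraries held between 23637021 and 37043914 estimated fragments, with the lowest totals in siYap replicates 1 and 3. Yap1 itself averaged 3.29 ± 0.845 FPKM in siYap tumours and 9.999 ± 1.37 FPKM in siLuc tumours (SD, n = 5 and n = 8), with no overlap between the groups (log2 fold change -1.58 ± 0.17 (SE), adjusted p = 2.36e-05). One control library stood apart: siLuc replicate 8 held 28874 fragments on 4 Y-linked genes, and no other library held more than 11. A code attached to each library starts with 6, 7 or 8 (2 siYap and 2 siLuc, 2 siYap and 5 siLuc, and 1 siYap and 1 siLuc libraries), and the labels do not say what the digit stands for. The code also holds a number that some libraries of a group share, with 3 numbers among the 5 siYap libraries and 5 among the 8 siLuc libraries. The labels do not say whether a shared number marks 1 animal. For the 45 genes followed in alternative fits, a call lost when such libraries are summed is given with its value. Kidney tubule markers were at or near 0 (summed FPKM of 4 genes at most 0.0530 in siYap and 0.158 in siLuc, with Slc34a1 and Aqp2 at 0 in all libraries), and hepatocyte markers summed to 11711 to 19802 FPKM in siYap and 16191 to 25432 FPKM in siLuc.

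Of the 99 transporter genes, 73 passed the filter on low counts and 26 did not, among which the highest value in any library was 0.743 FPKM. In edgeR's quasi-likelihood test, with p-values adjusted over all 15132 genes tested, 23 members were higher in siYap, 7 were lower and 43 did not pass at an adjusted p under 0.05. Over all genes tested, 16.0% were called higher, 14.8% were called lower and 30.8% were called either way. The median log2 fold change was 0.33 over the members tested and -0.00 over all genes tested. The FPKM ranges of the groups did not overlap for 13 members, with siYap above siLuc for 9 and below it for 4, where 5.57% of all genes tested lay above and 5.66% below. SLC members were called higher in 12 of 30 tested and lower in 2, and ABC members were called higher in 11 of 43 and lower in 5. Within each of the 3 digits of the library code, 28 of the 30 called members differed in the direction of the whole comparison. The exceptions were Abca9, with a difference in log2 CPM of 0.02 within digit 6, and Slc10a5, with -0.38 within digit 8. The 30 members were called on these same libraries, so the agreement is no independent check. Digit 8 holds only 1 siYap and 1 siLuc library.

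**Figure D1:**
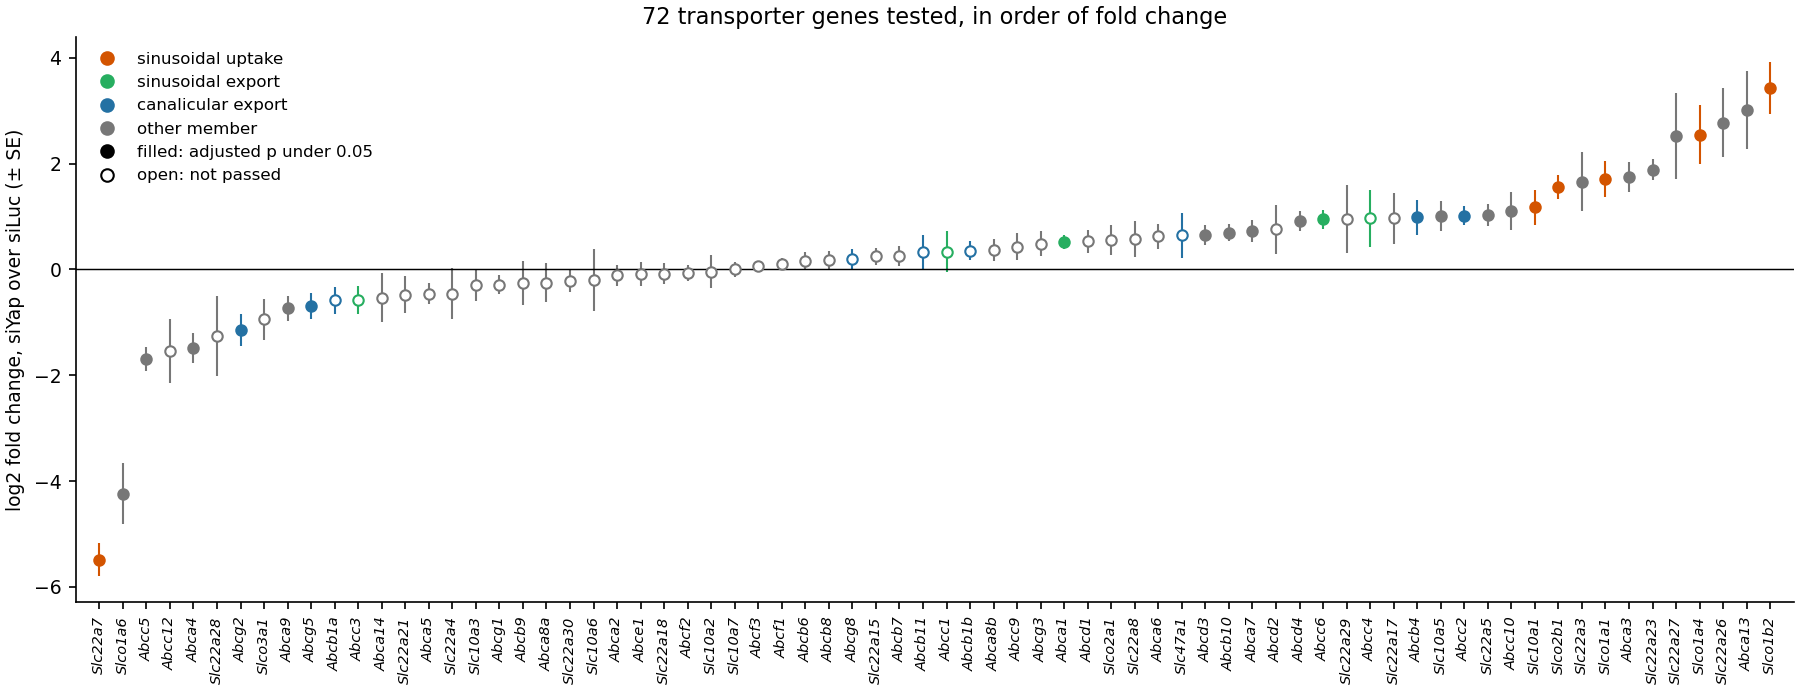
Log2 fold change of siYap over siLuc (y axis, points with standard error) for 72 of the members tested, ordered along the x axis and coloured by role, with filled points for adjusted p under 0.05. The uptake carriers lie at both ends, with Slco1b2 at 3.43 and Slc22a7 at -5.49, and the canalicular exporters lie between -1.15 and 1.02.

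Most sinusoidal uptake carriers were higher in siYap tumours. Of the 7 on this list, 6 rose in siYap tumours and 1 fell, with a median log2 fold change of 1.71. Of all genes tested, 16.0% were called higher and 14.8% lower. Slco1b2 was 10.8-fold higher in mean FPKM, whereas Slc22a7 was 46.05-fold lower. In bulk tumour RNA, fewer cells of a type and less RNA per cell cannot be told apart, here and below.

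Slco1b2 (mouse build mm10, chr6:141629452-141686646) encodes the liver carrier Oatp1b2, which takes up bilirubin, bile acids and statins. It was measured at 782, 2759.8, 1161, 2926 and 2046 FPKM in the siYap libraries, against 47.4 FPKM in the lowest, 171 FPKM at the median and 307 FPKM in the highest siLuc library. Every siYap library was thus above every siLuc library, and siYap replicate 1 was the lowest of its group. Its log2 fold change was 3.43 ± 0.49 (SE, adjusted p = 0.000204). By mean FPKM it ranked 22 in siYap tumours and 395 in siLuc tumours among all genes except 3 left out as too deep to estimate. It was first among the members in both.

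Slco1a4 (chr6:141805438-141856284), the carrier Oatp1a4 known for digoxin uptake, averaged 97.7 ± 58.3 FPKM in siYap and 16.7 ± 12.2 FPKM in siLuc (SD). Only siYap replicate 1, at 36.2 FPKM, lay under the highest siLuc value of 39.3 FPKM (log2 fold change 2.55 ± 0.56, adjusted p = 0.00428). Slco2b1 (chr7:99657804-99711340), the carrier Oatp2b1 for sulfated steroids and many drugs, had 17.4, 26.1, 29.7, 27.8 and 20.98 FPKM in siYap and 4.27 to 11.7 FPKM (median 9.67) in siLuc. The groups did not overlap (log2 fold change 1.55 ± 0.23, adjusted p = 0.00023), and 7.91% of its exon bases are shared with another annotated gene, Gm15635. Slco1a1 (chr6:141907281-141946962), the carrier Oatp1a1, was low in both groups, at 3.97, 3.02, 2.59, 6.17 and 3.33 FPKM in siYap and 0.635 to 2.76 FPKM (median 0.942) in siLuc. It rose with a log2 fold change of 1.71 ± 0.34 (adjusted p = 0.00187). The groups overlapped through siLuc replicate 8, the library with Y-linked fragments, which held the 2.76 FPKM, and without that library the log2 fold change was 2.06.

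Slc10a1 (chr12:80953185-80968705), the sodium-dependent bile acid carrier Ntcp, had 44.95, 85.7, 68.7, 64.8 and 50.1 FPKM in siYap and 11.7 to 57.9 FPKM (median 24.5) in siLuc. The ranges overlapped through the siLuc library with 57.9 FPKM. The log2 fold change was 1.17 ± 0.32 (adjusted p = 0.0145), the smallest of the rises on this list. The call ended, at an adjusted p of 0.0508, when siYap replicates 1 and 3 were left out together.

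Slc22a7 (chr17:46432185-46438477), the organic anion carrier Oat2, went the other way. It was at 0.276, 0.14999, 0.565, 0.466 and 0.618 FPKM in siYap libraries, or 10 to 39 fragments, against 13.5 to 25.9 FPKM (median 19.2), or 1038 to 1804 fragments, in siLuc libraries. No siYap library came near the siLuc range. The log2 fold change of -5.49 ± 0.31 (adjusted p = 8.95e-08) lay between -5.66 and -5.27 when each library was left out in turn, and the log2 CPM difference was -5.96, -5.18 and -5.11 within digits 6, 7 and 8.

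**Figure D2:**
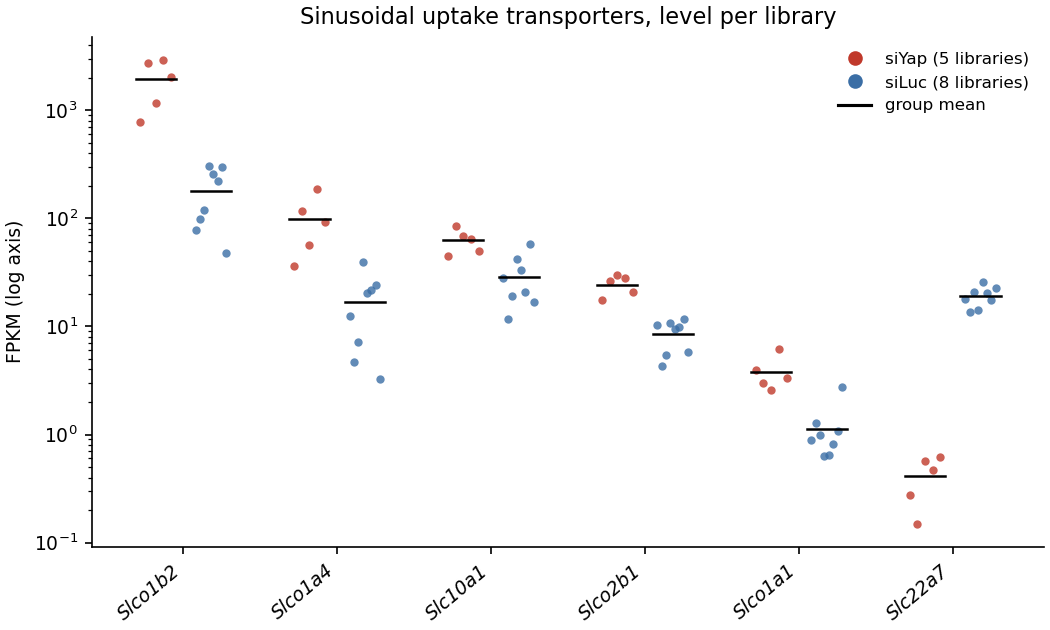
FPKM of 6 sinusoidal uptake carriers in each library (log y axis), siYap in red to the left of siLuc in blue, with a bar at each group mean. For Slco1b2 and Slco2b1 all siYap points lie above all siLuc points, and for Slc22a7 all lie below.

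The fallen Slco1a6 lies beside the risen Slco1b2, Slco1a4 and Slco1a1 in a run of Slco1 genes on chromosome 6, and Abcg5 and Abcg8 share a start region on chromosome 17. The RefSeq promoter windows of Slco1a6 and Abcg8 (GRCm38.p6, 250 bases before to 50 after the annotated start, in the gene's direction) are shown because these genes differed in call from their neighbours, with the motif found in capitals. The motifs were CTTTGAA or CTTTGAT, for Tcf/Lef factors, and GGAATG, for Tead factors, on both strands. In the Slco1a6 window (chr6:142186100-142186399, minus strand) the capitals mark a Tcf/Lef motif, read on the opposite strand, 88 bases before the start. In the window of the first Abcg8 entry (chr17:84682871-84683170, plus strand) they mark a Tead motif 8 bases before the start, which also lies in the overlapping window of Abcg5, 107 bases before that gene's start.
Slco1a6: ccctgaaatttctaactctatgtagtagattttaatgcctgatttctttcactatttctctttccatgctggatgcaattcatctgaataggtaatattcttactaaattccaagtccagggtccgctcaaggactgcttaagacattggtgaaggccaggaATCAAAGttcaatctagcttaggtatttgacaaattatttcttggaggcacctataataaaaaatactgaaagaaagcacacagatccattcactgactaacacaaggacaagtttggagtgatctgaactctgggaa
Abcg8: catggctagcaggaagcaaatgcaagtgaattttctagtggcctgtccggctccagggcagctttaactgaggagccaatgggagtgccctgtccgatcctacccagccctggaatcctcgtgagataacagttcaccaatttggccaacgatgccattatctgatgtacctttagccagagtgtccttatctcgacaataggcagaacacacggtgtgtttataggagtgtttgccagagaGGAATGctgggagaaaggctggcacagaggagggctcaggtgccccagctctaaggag
RefSeq promoters were matched for 79 of the 99 members, giving 92 windows. The Tead motif was in 25% of these windows and in 14.7% of all 32851 promoters, and the Tcf/Lef motifs in 7.61% and 8.65%. Paired AGGTCA sites in the arrangements known as IR1, DR1 and DR4, which nuclear receptors can bind, were in none of the member windows and in at most 0.0396% of all promoters. These matches describe letters in the windows and were not tested for binding.

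The canalicular exporters did not move as a group. Of 9, 2 rose (Abcc2 and Abcb4), 2 fell (Abcg2 and Abcg5) and 5 did not pass, against 30.8% of all genes called either way. The median log2 fold change of the 9 was 0.33. The main bile salt pump was among those that did not pass. Abcc2 (chr19:43782308-43838332), the pump Mrp2 for conjugated bilirubin, had 149, 174, 243, 199 and 147 FPKM in siYap against 60.8 to 117 FPKM (median 88.8) in siLuc. No overlap was seen, with a log2 fold change of 1.02 ± 0.18 (adjusted p = 0.000741). Abcb11 (chr2:69238282-69342616), the bile salt export pump, had 131, 227, 50.2, 86.1 and 115 FPKM in siYap and 68.1 to 163 FPKM (median 78.6) in siLuc. The siYap values spanned the whole siLuc range, and the log2 fold change of 0.33 ± 0.32 did not pass (adjusted p = 0.457) and was -0.014 without siYap replicate 2.

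Abcb4 (chr5:8893614-8959226), which moves phosphatidylcholine into bile, had 67.8, 137, 147, 205 and 172 FPKM in siYap and 28.4 to 137 FPKM (median 69.2) in siLuc. Its rise was close to the threshold (log2 fold change 0.98 ± 0.34, adjusted p = 0.0396). The call ended in 8 of the 13 fits that left out 1 library (siYap replicate 2, 3, 4 or 5, or siLuc replicate 3, 5, 7 or 8), at adjusted p of 0.0529 to 0.102. Abcg2 (chr6:58584491-58692451), the breast cancer resistance protein that exports urate and many drugs, had 24.3, 19.3, 16.96, 31.4 and 30.2 FPKM in siYap and 23.03 to 108 FPKM (median 46.9) in siLuc. It fell with a log2 fold change of -1.15 ± 0.30 (adjusted p = 0.0102), although the ranges overlapped. Without siYap replicates 1 and 3 together the adjusted p was 0.0968.

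Abcg5 and Abcg8 encode the partners of 1 heterodimer that exports cholesterol and plant sterols, and their genes stand head to head on chromosome 17. Abcg5 (chr17:84658174-84683011) had 43.7, 29.8, 42.4, 54.5 and 64.4 FPKM in siYap and 48.3 to 122 FPKM (median 68.8) in siLuc, a log2 fold change of -0.70 ± 0.24 (adjusted p = 0.0411). Abcg8 (chr17:84676302-84700333) averaged 19.6 ± 5.48 FPKM in siYap and 17.3 ± 4.07 FPKM in siLuc (SD), a log2 fold change of 0.20 ± 0.19 (adjusted p = 0.451). The difference between the pair was not tested. The Abcg5 call ended in 7 of the 13 fits without 1 library (siYap replicate 1, 2 or 3, or siLuc replicate 1, 4, 7 or 8), at adjusted p of 0.0554 to 0.09696, and with libraries of a shared number summed (adjusted p = 0.148). The genes share 82 exon bases on opposite strands.

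Abcb1a and Abcb1b encode the P-glycoproteins, which export a wide range of drugs. Abcb1a averaged 17.7 ± 4.25 FPKM in siYap and 26.4 ± 9.89 FPKM in siLuc (log2 fold change -0.58 ± 0.25, adjusted p = 0.0919). It passed, at 0.0425, when siLuc replicate 8 was left out. Abcb1b averaged 2.83 ± 0.663 FPKM in siYap and 2.21 ± 0.447 FPKM in siLuc (adjusted p = 0.143). The transcripts of the pair share 17% and 18.3% of their 50-base windows with other genes, so part of their split of fragments is uncertain. Abcb1a also shares 10.1% of its exon bases with the opposite-strand gene Gm42686. Slc47a1, the proton-coupled carrier Mate1 that exports organic cations, averaged 24.2 ± 9.801 FPKM in siYap and 15.6 ± 8.29 FPKM in siLuc (log2 fold change 0.65 ± 0.42, adjusted p = 0.258).

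Exporters of the sinusoidal membrane showed 2 rises among 5, and the other 3 did not pass, with a median log2 fold change of 0.52. Of all genes tested, 16.0% were called higher. Abca1 (chr4:53030789-53159988), which loads cholesterol and phospholipid onto apolipoprotein A-I, had 62.4, 68.5, 73.9, 73.8 and 68.1 FPKM in siYap and 37.1 to 56.5 FPKM (median 49.99) in siLuc. All siYap values were above all siLuc values, by a small difference (log2 fold change 0.52 ± 0.14, adjusted p = 0.00957). Abcc6 (chr7:45974110-46030491), needed for the release of ATP that yields pyrophosphate, averaged 17.5 ± 7.13 FPKM in siYap and 9.24 ± 1.999 FPKM in siLuc (log2 fold change 0.95 ± 0.19, adjusted p = 0.00182). Abcc3, the conjugate exporter Mrp3, averaged 49.7 ± 15.1 FPKM in siYap and 75.6 ± 27.2 FPKM in siLuc (log2 fold change -0.58 ± 0.27, adjusted p = 0.109).

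Abcc4 (chr14:118482692-118707856), the exporter Mrp4 of bile acids and cyclic nucleotides, had 6.13, 18.1, 18.8, 14.7 and 5.603 FPKM in siYap and 1.92 to 25.3 FPKM (median 4.34) in siLuc. The highest siLuc value was that of replicate 1, and the next was 6.16 FPKM. Its log2 fold change was 0.96 ± 0.54 (adjusted p = 0.185) with all libraries and 1.60 (adjusted p = 0.00537) without siLuc replicate 1. Abcc1, the glutathione conjugate exporter Mrp1, averaged 2.02 ± 0.658 FPKM in siYap and 1.64 ± 1.19 FPKM in siLuc (adjusted p = 0.536). It too was highest in siLuc replicate 1, at 4.46 FPKM, and passed without that library (log2 fold change 0.75, adjusted p = 0.0363). In that fit 4 of the 5 sinusoidal exporters were called higher. The count was 0 with replicate number as a block and 0 at a log2 fold change of at least 1.

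**Figure D3:**
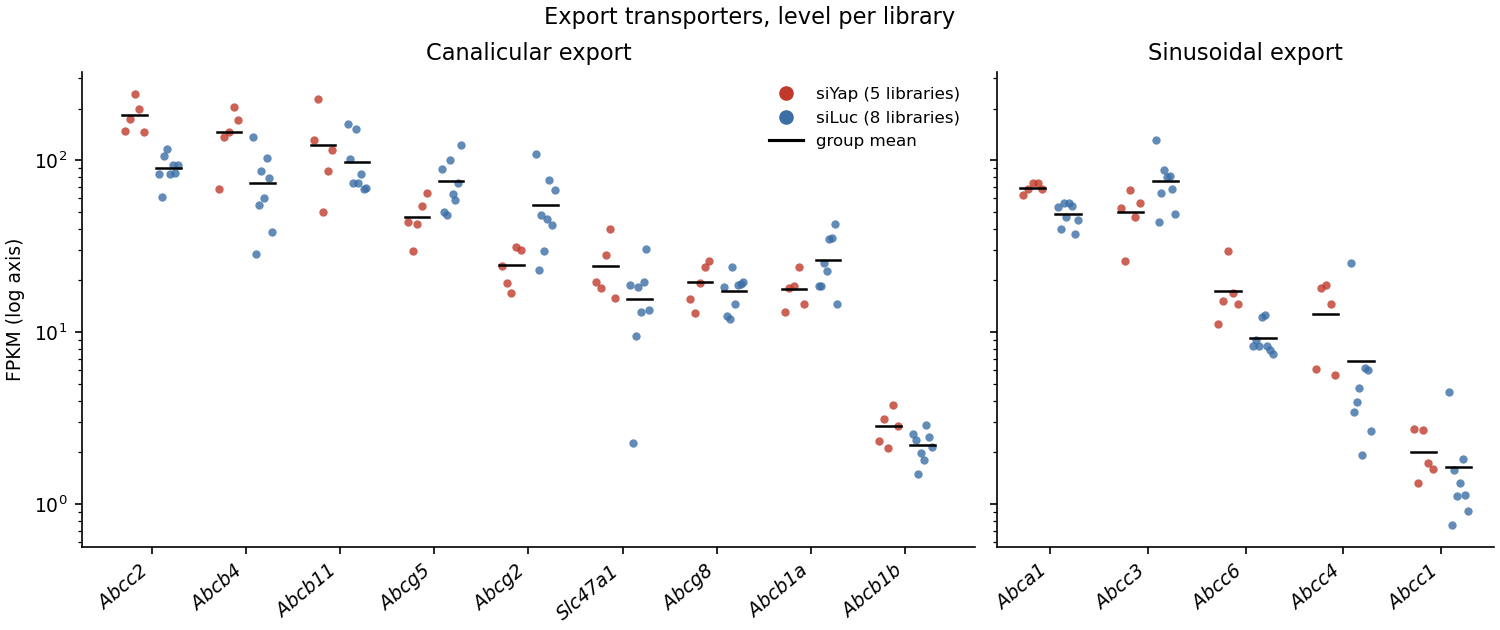
FPKM of the 9 canalicular and 5 sinusoidal exporters in each library (log y axis), siYap in red to the left of siLuc in blue, with a bar at each group mean. Among these 14 only Abcc2 and Abca1 have all siYap points above all siLuc points, and siLuc replicate 1 stands high for Abcc4 and Abcc1.

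Set side by side, the uptake list changed in its summed level and the export lists overlapped between groups. The 7 uptake carriers summed to 1019 to 3851 FPKM in siYap libraries and to 105 to 460.2 FPKM in siLuc libraries (2570.5 ± 1141 and 285 ± 139, SD). Slco1b2 made up 60.4% to 80.6% of that sum in siYap and 39.01% to 69.4% in siLuc. The 9 canalicular exporters summed to 466 to 667 FPKM in siYap and 299 to 639.6 FPKM in siLuc, and the 5 sinusoidal exporters to 129 to 192 FPKM in siYap and 96.3 to 222 FPKM in siLuc. The ratio of the uptake sum to the canalicular sum lay between 2.19 and 5.77 in siYap libraries and between 0.238 and 0.982 in siLuc libraries. The ratio of the sinusoidal to the canalicular export sum was 0.202 to 0.338 in siYap and 0.238 to 0.388 in siLuc. Abundant genes weigh most in these sums. By the mean log2(FPKM + 0.1) of each list, the uptake list did not overlap either (4.59 to 5.86 in siYap, 3.13 to 4.48 in siLuc). The canalicular list overlapped (4.85 to 5.44 and 4.22 to 5.35). The sinusoidal export list, at 3.81 to 4.58 and 3.10 to 4.54, overlapped only through siLuc replicate 1, as the next siLuc value was 3.75. These sums and means are descriptions and carry no test.

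**Figure D4:**
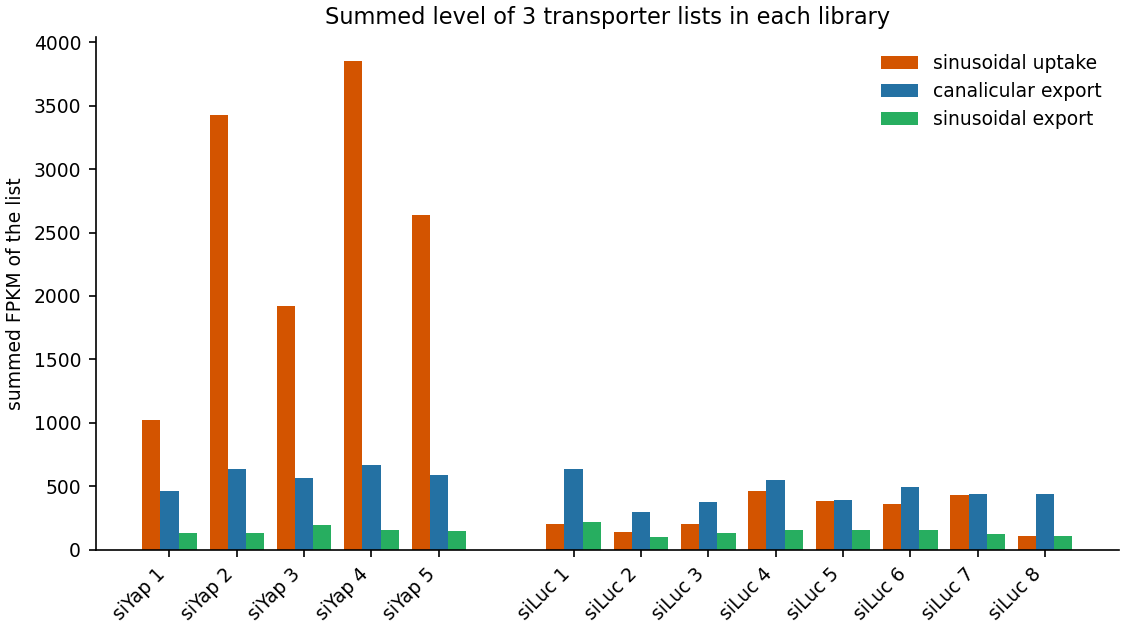
Summed FPKM of the uptake, canalicular export and sinusoidal export lists (bars, axis from 0) in each of the 5 siYap and 8 siLuc libraries. The uptake sum is above the canalicular sum in all siYap libraries and below it in all siLuc libraries.

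Some markers of several cell types were also called. The counts below stand against 16.0% of all genes tested called higher and 14.8% called lower. The 8 pericentral hepatocyte markers were all called higher, with summed levels of 3651 to 18828 FPKM in siYap and 86.9 to 685 FPKM in siLuc. The lowest siYap sum was that of siYap replicate 1, the lowest siYap library for Slco1b2. That rank was not particular to this list. The same library was lowest of its group for the general hepatocyte sum (11711 FPKM) and the canalicular export sum (466 FPKM). It was highest for the neutrophil sum (1145 FPKM) and the stellate and fibroblast sum (281 FPKM). Of 8 general hepatocyte markers, 1 was higher (Tat), 3 were lower and 4 did not pass. Of 7 cholangiocyte markers 4 were lower (summed 168 to 1150.3 FPKM in siYap and 1952 to 5097 FPKM in siLuc, nearly all of it Spp1, at 521 ± 420.9 and 4120.2 ± 1039 FPKM), while the defining markers Krt7 and Krt19 averaged 0.981 and 0.863 FPKM in siYap and 0.935 and 0.789 FPKM in siLuc and did not pass. The mean log2(FPKM + 0.1) of the cholangiocyte list overlapped, at 1.49 to 3.18 in siYap and 2.69 to 4.11 in siLuc. In addition, of 5 macrophage markers 3 were lower (21.4 to 45.1 and 42.996 to 99.7 FPKM), and of 2 intestine markers tested both were lower (22.3 to 58.2 and 39.2 to 169 FPKM, with Alpi at 0 in all libraries). Neutrophil markers were higher in 4 of 4 (153 to 1145 FPKM in siYap and 33.3 to 185 FPKM in siLuc), endothelial markers in 2 of 6 (43.2 to 109.9 and 36.01 to 102 FPKM), and stellate and fibroblast markers in 2 of 6 (55.8 to 281 and 35.8 to 103 FPKM). Of 5 lymphocyte markers tested 0 passed in edgeR's test, 1 in DESeq2, 0 in limma and 1 at an unadjusted p under 0.05 (15.4 to 32.8 FPKM in siYap and 17.7 to 45.6 FPKM in siLuc, all 6 listed). The part of any of these in the transporter changes was not tested.

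Outside the role lists, several Slc22a genes rose. Slc22a26 (chr19:7780094-7802667) had 18.5, 21.6, 42.9, 70.3 and 21.8 FPKM in siYap and 0.226 to 11.3 FPKM (median 4.67) in siLuc. The groups did not overlap (log2 fold change 2.78 ± 0.64, adjusted p = 0.00574). Its neighbour Slc22a27 had 5.22, 28.1, 34.5, 66.5 and 20.9 FPKM in siYap and 0.369 to 19.1 FPKM (median 3.91) in siLuc, with overlap through siYap replicate 1. Its log2 fold change was 2.52 ± 0.81 (adjusted p = 0.031) and 3.18 without siLuc replicate 7, and the call ended without siYap replicate 3 or 4 or siLuc replicate 3 (adjusted p of 0.0542 to 0.0896) and with libraries of a shared number summed (adjusted p = 0.0511). Slc22a27 shares 30.5% of its 50-base windows with other genes, chiefly Slc22a29, and Slc22a26 shares 5.88%.

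Slc22a23 (chr13:34179158-34345275), a family member whose substrate is not established, had 16.01, 25.8, 38.1, 26.1 and 16.3 FPKM in siYap and 4.65 to 9.02 FPKM (median 6.43) in siLuc. There was no overlap, and its adjusted p was the smallest among the rises (log2 fold change 1.89 ± 0.20, adjusted p = 1.6e-05). Slc22a3 (chr17:12419972-12507704), the organic cation carrier Oct3, averaged 10.3 ± 5.14 FPKM in siYap and 3.23 ± 2.61 FPKM in siLuc (log2 fold change 1.66 ± 0.56, adjusted p = 0.0376). That call ended in 7 of the 13 fits without 1 library (siYap replicate 3, 4 or 5, or siLuc replicate 3, 5, 6 or 7), at adjusted p of 0.0543 to 0.102, and with libraries of a shared number summed (adjusted p = 0.126). Slc22a3 shares 420 exon bases, 9.31% of its exons, with the opposite-strand gene Plg, which averaged 281 ± 31.4 FPKM in siYap and 248 ± 43.9 FPKM in siLuc and did not pass the test. Reads of such pairs cannot be told apart without strand, and the use of strand in counting is not given in the sources used here.

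Abca3 (chr17:24351921-24410204), which loads lipid into the lamellar bodies of lung cells, had 19.7, 15.5, 14.3, 7.16 and 8.103 FPKM in siYap and 2.49 to 5.75 FPKM (median 3.89) in siLuc. The groups did not overlap (log2 fold change 1.74 ± 0.29, adjusted p = 0.000558). It shares 9.75% of its exon bases with the opposite-strand gene D330041H03Rik, which was also called higher (15.4 ± 1.78 FPKM in siYap and 10.6 ± 2.02 FPKM in siLuc).

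Besides Slc22a7 and the canalicular pumps, the named falls were Slco1a6, Abcc5 and Abca9. Slco1a6 (chr6:142085761-142186177), another Oatp of the chromosome 6 run, had 0.674, 0.0416, 0.0951, 0.162 and 0.264 FPKM in siYap and 1.67 to 6.03 FPKM (median 5.18) in siLuc. Every siYap value was below every siLuc value, and the log2 fold change of -4.24 ± 0.58 (adjusted p = 0.000156) was -4.93 without siYap replicate 1. It shares 5.6% of its 50-base windows with other genes. Abcc5 (chr16:20331303-20426428), the cyclic nucleotide exporter Mrp5, had 5.69, 4.82, 5.03, 3.76 and 2.98 FPKM in siYap and 9.47 to 21.98 FPKM (median 13.7) in siLuc, again with no overlap (log2 fold change -1.69 ± 0.22, adjusted p = 8.41e-05). Abca9 averaged 3.01 ± 1.87 FPKM in siYap and 4.72 ± 0.527 FPKM in siLuc (log2 fold change -0.73 ± 0.24, adjusted p = 0.0298). siYap replicate 1, at 6.21 FPKM, lay above every siLuc library, and without it the log2 fold change was -1.06. The Abca9 call ended without siYap replicate 2, 3, 4 or 5 or siLuc replicate 4 (adjusted p of 0.0508 to 0.0872).

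Many members sit in runs of neighbouring genes. With gaps of up to 500000 bases, 17 runs held 53 of the 99 members, and 3 of the runs held calls in both directions. Of all genes tested, 16.0% were called higher and 14.8% lower. In the chromosome 6 run Slco1b2, Slco1a4 and Slco1a1 rose and the next gene, Slco1a6, fell. On chromosome 17, Slc22a7 fell and its neighbour Abcc10, at 1.25 ± 1.05 FPKM in siYap and 0.593 ± 0.191 FPKM in siLuc, rose (adjusted p = 0.0329). On chromosome 3, Abcd3 rose and Abca4, at 0.0851 ± 0.0252 FPKM in siYap and 0.242 ± 0.0676 FPKM in siLuc, fell (adjusted p = 0.00155). Abcc10 and Abca4 were both low, and their calls were not followed in the alternative fits. The chromosome 19 run held 2 rises, Slc22a26 and Slc22a27, beside 4 members that did not pass and 2 that were not tested. One of those that did not pass, Slc22a28, was at 0.814 to 3.05 FPKM in siYap and 0.334 to 16.2 FPKM in siLuc (adjusted p = 0.219), and its highest value was again that of siLuc replicate 8, while 53.9% of its 50-base windows are shared with other genes.

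**Figure D5:**
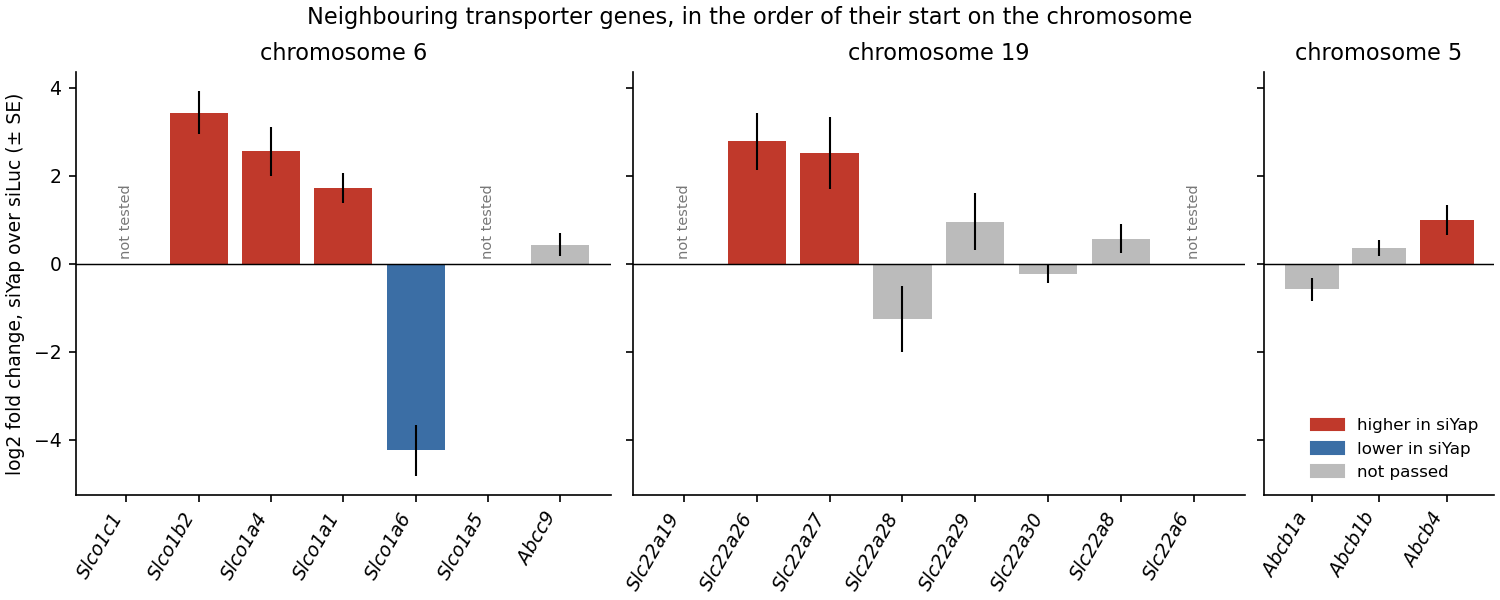
Log2 fold change of siYap over siLuc (bars with standard error) for members that neighbour each other on chromosomes 6, 19 and 5, in the order of their start. On chromosome 6 the fall of Slco1a6 (-4.24) stands next to the rises of Slco1b2 (3.43), Slco1a4 (2.55) and Slco1a1 (1.71).

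Among ABC proteins inside the cell, 3 of 13 were called, against 30.8% of all genes tested. Of the 4 mitochondrial members 1 rose and 3 did not pass, of 5 peroxisomal and lysosomal members 2 rose and 3 did not pass, and of the 4 soluble members, which act in ribosome recycling and translation, none passed in edgeR's test. The count among these 4 was also 0 at an unadjusted p under 0.05, in DESeq2 and in limma. Abcb10, a mitochondrial inner membrane protein needed for haem synthesis, averaged 6.87 ± 0.9297 FPKM in siYap and 4.25 ± 0.915 FPKM in siLuc (log2 fold change 0.70 ± 0.16, adjusted p = 0.00463). It shares 10.3% of its exon bases with the opposite-strand gene Gm45890. Abcd4, which takes part in the release of cobalamin from lysosomes, had 3.34, 3.53, 5.35, 2.805 and 3.504 FPKM in siYap and 1.32 to 2.77 FPKM (median 1.98) in siLuc. The groups did not overlap (log2 fold change 0.92 ± 0.19, adjusted p = 0.00233). Abcd3, the peroxisomal importer of branched fatty acids and bile acid precursors, averaged 133 ± 37.4 FPKM in siYap and 84.8 ± 12.8 FPKM in siLuc (log2 fold change 0.65 ± 0.19, adjusted p = 0.0179), and did not pass without siYap replicate 4 (adjusted p = 0.0597).

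Among 15 transcription factors known to control transporter genes, 6 were higher in siYap and 9 did not pass, with a median log2 fold change of 0.25. Of all genes tested, 16.0% were called higher. Nr1i3, the xenobiotic receptor Car, had 43.5, 27.6, 97.2, 73.05 and 35.1 FPKM in siYap and 2.28 to 17.5 FPKM (median 6.67) in siLuc (log2 fold change 2.77 ± 0.51, adjusted p = 0.00136). Ahr, the aryl hydrocarbon receptor, averaged 67.1 ± 23.1 FPKM in siYap and 13.4 ± 3.798 FPKM in siLuc (log2 fold change 2.32 ± 0.28, adjusted p = 5.34e-05), and Rxra, the shared partner of many nuclear receptors, averaged 56.6 ± 12.6 and 29.1 ± 3.39 FPKM (adjusted p = 9.2e-05). None of these 3 overlapped between the groups.

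Nr0b2, the repressor Shp that responds to bile acids, averaged 9.72 ± 2.05 FPKM in siYap and 4.51 ± 2.57 FPKM in siLuc (log2 fold change 1.14 ± 0.34, adjusted p = 0.0209), and did not pass without siYap replicate 1 (0.0566) or 3 (0.0532). Ppara, the fatty acid receptor, was close to the threshold (log2 fold change 0.65 ± 0.23, adjusted p = 0.0445) and lost its call in 9 of the 13 fits without 1 library (siYap replicate 3, 4 or 5, or siLuc replicate 1, 2, 3, 4, 6 or 7), at adjusted p of 0.0562 to 0.141, and with libraries of a shared number summed (adjusted p = 0.105). The bile acid receptor Fxr (Nr1h4) averaged 66.6 ± 12.6 FPKM in siYap and 73.97 ± 12.2 FPKM in siLuc (log2 fold change -0.17 ± 0.16, adjusted p = 0.43). The xenobiotic receptor Pxr (Nr1i2) and Hnf4a did not pass either, with log2 fold changes of 0.22 ± 0.19 (adjusted p = 0.413) and 0.21 ± 0.16 (adjusted p = 0.34).

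A second list held 15 partners of these transporters and carriers of bile flow that bear other names, and 3 of them were lower and 12 did not pass. Of all genes tested, 14.8% were called lower. Slc51b, a subunit of the sinusoidal bile acid exporter Ost, had 1.17, 0.189, 0.216, 0.105 and 1.801 FPKM in siYap and 3.12 to 14.7 FPKM (median 8.43) in siLuc, with no overlap (log2 fold change -3.60 ± 0.64, adjusted p = 0.000839, and -4.27 without siYap replicate 5). Its partner subunit Slc51a averaged 0.214 ± 0.129 FPKM in siYap and 0.253 ± 0.141 FPKM in siLuc. Ezr, ezrin, which ties apical membrane proteins to actin, averaged 5.81 ± 0.778 FPKM in siYap and 24.2 ± 6.89 FPKM in siLuc (log2 fold change -2.03 ± 0.19, adjusted p = 6.88e-06), again with no overlap. Tap1, an ABC peptide transporter of the endoplasmic reticulum whose symbol lies outside the rule, had a log2 fold change of -0.51 ± 0.15 (adjusted p = 0.0199), and did not pass with libraries of a shared number summed (adjusted p = 0.0648).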

How the data were processed

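Tumour RNA of 13 libraries (5 siYap, 8 siLuc) was analysed. The labels' protocols name the ScriptSeq Complete Gold kit and the HiSeq2500. The build mm10 and the tools Trimmomatic 0.30, TopHat2 2.0.8, Cuffdiff 2.1.1 and Cufflinks are listed per the submitters' processing notes. What each tool did, which annotation was used, whether strand was used and how multi-mapped reads were treated: not given in the sources used here. Per the file headers, the authors deposited raw fragments per gene, which are estimated counts, and FPKM scaled in their Cuffdiff run. The siYap replicate indices in these tables run from 0 to 7 with gaps, so the scaling may rest on libraries not analysed here.

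Estimated counts were rounded. Genes were tested with the quasi-likelihood fit of edgeR 4.0.16 in R 4.3.3 (robust, TMM, default filter by group, 15132 genes), siYap over siLuc with no covariate, Benjamini-Hochberg adjusted over all genes and called at an adjusted p under 0.05. The standard error is the log2 fold change over the root of F. Levels are FPKM, mean ± SD. In all, 3 genes marked as too deep to estimate (HIDATA) were left out, and no member carried such a mark. The scripts were tested on simulated data, where 85.9% of changes of log2 size 2 and 50% of those of size 1 were recovered. There only 99 and 98 of 14986 genes were changed by these sizes, a far smaller share than the 30.8% called here. The cut on adjusted p depends on that share, so the rates need not hold for these data. A gene that did not pass may still differ.

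The members and lists were chosen with earlier results of these data known. Named genes were the members of the 3 role lists, the 10 largest rises and falls among called members with at least 1 FPKM in either group, up to 3 intracellular ABC genes, and called or preset regulators and partners. Others that are named, such as Slc22a28, Abcc10, Abca4 and Slc51a, were chosen after their values were seen. Alternatives, with limma 3.58.1 and DESeq2 1.42.0, are given in the closing section, and 3 that leave out or restrict libraries were chosen after seeing the data. Positions are RefSeq GRCm38.p6 and exon overlaps GENCODE on GRCm38, the assembly behind mm10. Some results on individual genes are not reported here.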

Additional observations from a re-analysis of the deposited data

Results flagged for a closer look

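In 90 sets of values (45 named genes in 2 groups), 8 had an extreme library far from the others of its group by Dixon's test at the 95% level. Chance flags about 1 in 20 sets (5%), and the causes were not tested.

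siLuc replicate 1 was the highest control for Abcc4 (25.3 FPKM, next 6.16), Abcc1 (4.46 FPKM, next 1.83) and Nr0b2 (10.3 FPKM, next 5.08). siLuc replicate 8, the library with Y-linked fragments, was the highest control for Slco1a1 (2.76 FPKM, next 1.27) and Hnf4a (127 FPKM, next 88.6). siLuc replicate 7 was the highest control for Slc22a27 (19.1 FPKM, next 7.51).

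Among treated tumours, siYap replicate 1 was the highest for Abca9 (6.21 FPKM, next 2.78), and siYap replicate 3 was the highest for Abcd4 (5.35 FPKM, next 3.53).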

How the results depend on the processing

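Among the uptake carriers, 6 rises and 1 fall were counted under the alternatives run, except 5 rises without siYap replicates 1 and 3 together and 5 at an adjusted p under 0.01. The count of members higher moved from 23 to 15 at an adjusted p under 0.01, and that of members lower from 7 to 4 there and with the replicate block. With libraries of a shared file-name number summed, 19 of the 23 members called higher and 6 of the 7 called lower kept that call. Calls of members outside the 45 named genes, such as Abcc10, Abca4, Slc22a5 and Slc10a5, were not followed one by one. All genes called numbered 4668, and 2298 with the replicate block, 3067 for replicates 1 to 5 of both groups without a block, 2984 without siYap replicates 1 and 3, 2362 at an adjusted p under 0.01 and 1992 at a log2 fold change of at least 1. Sinusoidal exporters called higher numbered 2, and 0 with the block, 1 for replicates 1 to 5 without it, 0 at a log2 fold change of at least 1, and 2 to 4 without each library in turn. Canalicular exporters called higher numbered 2, and 1 with no filter on counts, in limma on log2(FPKM + 1) with no filter, with the block, for replicates 1 to 5 without it, and at either stricter threshold, and 1 to 2 without each library. Those called lower numbered 2, and 1 with libraries of a shared file-name number summed, in limma with no filter, for replicates 1 to 5, without siYap replicate 1 and siLuc replicate 8, and at a log2 fold change of at least 1, 0 with the block, without siYap replicates 1 and 3 and at an adjusted p under 0.01, and 1 to 2 without each library. Of 1350 results for the 45 named genes, 1237 kept direction and call, 105 lost the call, 5 gained it and 3 reversed, none of them called: the log2 fold change of Abcc1 was -0.096 without siYap replicates 1 and 3, that of Abcb11 lay between -0.014 and 0.53 without each library in turn, and that of Nr1h4 was 0.011 without siYap replicate 1 and siLuc replicate 8, and -0.24 to -0.055 without each library in turn.

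The labels do not say whether replicate numbers pair the samples. Deviations of same-numbered libraries correlated at -0.12, 0.127, 0.072, 0.118 and -0.087. The own number was the best match for 2 of 5 siYap and 2 of 5 siLuc libraries. So few libraries cannot decide whether the numbers pair the samples. The fit with the replicate block drops siLuc replicates 6 to 8. The causes of the other changes were not tested. The 26 members that did not pass the filter on low counts were not tested, so no difference can be stated for them.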

Other observations

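Some well-expressed members outside the role lists, picked after their values were seen, showed other patterns. The run of Abca genes on chromosome 11 differed among itself: Abca6 averaged 207 ± 45.4 FPKM in siYap and 137 ± 43.02 FPKM in siLuc (adjusted p = 0.0551 in edgeR's test), ranking 3 among the members by mean level in siYap and 2 in siLuc, Abca8b 31.9 ± 3.59 and 25.02 ± 10.1 FPKM (adjusted p = 0.184), and Abca5 10.6 ± 2.43 and 14.5 ± 4.29 FPKM (adjusted p = 0.0963), while Abca9 was called lower. Slc10a2, the apical sodium-dependent bile acid carrier known from ileum and bile ducts, averaged 49.9 ± 15.3 FPKM in siYap and 51.6 ± 20.1 FPKM in siLuc (log2 fold change -0.04 ± 0.31, adjusted p = 0.931). Of the 7 cholangiocyte markers 4 were lower in siYap and 3 did not pass, Krt7 and Krt19 among them, against 14.8% of all genes tested called lower.

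Slc22a5, the carnitine carrier Octn2, averaged 15.4 ± 5.62 FPKM in siYap and 7.66 ± 1.61 FPKM in siLuc and was called higher (log2 fold change 1.03 ± 0.21, adjusted p = 0.00217), with 27.1% of its 50-base windows shared with other genes. Slc10a5, an orphan relative of the bile acid carriers, averaged 38.7 ± 11.3 FPKM in siYap and 19.3 ± 8.06 FPKM in siLuc and was also called higher (log2 fold change 1.01 ± 0.28, adjusted p = 0.0153), and its highest control value of 32.6 FPKM was in siLuc replicate 8. It shares 6.83% of its exon bases with the same-strand gene Gm38303, and 5.65% of its 50-base windows.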
